A study of Mus musculus with 8 samples.

Results

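The mouse miRNAs described here are the 5 products of the miR-99b/let-7e/miR-125a cluster of chromosome 17 (mmu-miR-99b, mmu-miR-99b*, mmu-let-7e, mmu-miR-125a-5p and mmu-miR-125a-3p) and 3 paralogs from other clusters (mmu-miR-99a, mmu-miR-100 and mmu-miR-125b-5p). They were taken by name and make up 8 of the 567 mouse miRNAs of the array. Liver miRNA was measured in a mouse model of liver fibrosis, on 8 single-colour Agilent miRNA arrays. CCL4 (carbon tetrachloride, a hepatotoxin) dissolved in olive oil was given intraperitoneally to male C57BL/6J mice, adults 8 weeks old at the start, and the control mice received olive oil alone. There were 5 CCL4 arrays (1 at 4 weeks, 2 at 6 weeks and 2 at 8 weeks of administration) and 3 olive oil arrays (1 at each of these weeks). The study does not say whether an array holds the RNA of 1 mouse or a pool, so n counts arrays and the p-values measure the spread between arrays.

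The miR-99/100, let-7 and miR-125 families are ancient, and members of the 3 families lie together in conserved clusters. Mammals carry several copies of this arrangement, so that a family's miRNAs come from different chromosomes with the same or nearly the same sequence. miR-125 is the vertebrate counterpart of lin-4, which with let-7 times development in the worm, and let-7 is known for repressing growth genes such as Ras in mature tissue. A miRNA finds its targets mainly through its seed, the bases from 2 to 8, and one strand of each hairpin usually outlasts the other, the passenger or star strand.

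The mature sequences are shown because a chromosome 17 miRNA and its paralog share a seed and can be told apart only by the bases outside it. They are RefSeq's for the build GRCm38.p6, written 5′ to 3′, with the seed in capitals.
miR-99b (chr17:17830194-17830215, plus strand): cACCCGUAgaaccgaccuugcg
miR-99a (chr16:77598940-77598961, plus strand): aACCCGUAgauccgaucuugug
miR-100 (chr9:41531437-41531458, plus strand): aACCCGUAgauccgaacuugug
let-7e (chr17:17830366-17830387, plus strand): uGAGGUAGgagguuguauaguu
let-7c (chr16:77599672-77599693 and chr15:85706616-85706637, plus strand): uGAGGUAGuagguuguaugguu
miR-125a-5p (chr17:17830817-17830840, plus strand): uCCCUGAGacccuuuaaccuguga
miR-125b-5p (chr9:41581940-41581961 and chr16:77646279-77646300, plus strand): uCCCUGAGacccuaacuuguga
miR-99b* (chr17:17830232-17830253, plus strand): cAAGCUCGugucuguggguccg
miR-125a-3p (chr17:17830855-17830876, plus strand): aCAGGUGAgguucuugggagcc

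Counted from 1 at the 5′ end, miR-99b differed from miR-99a by C1A, A11U, C16U and C21U, and from miR-100 by C1A, A11U, C16A and C21U. let-7e differed from let-7c by G9U and A19G, and from let-7a by G9U alone. miR-125a-5p shared its first 13 bases with miR-125b-5p, was longer (24 against 22 bases) and stood at an edit distance of 3. Measured between their 3′ ends, miR-99b lies 172 bp from let-7e, let-7e 453 bp from miR-125a-5p and miR-99b 625 bp from miR-125a-5p. On chromosome 16, miR-99a lies 732 bp from a let-7c copy and 47339 bp from a miR-125b copy, and on chromosome 9 miR-100 lies 50503 bp from the other miR-125b copy. let-7c is no member and was used only as the let-7 partner of the miR-99a cluster.

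Between 117 and 158 mouse miRNAs were detected per array by the scanner software, most of them on the CCL4 array of 4 weeks. On that array the lowest signal called detected was 0.139, against 5.59 to 8.16 on the other 7 arrays. The 75th percentile of the signals, used to scale the arrays, lay between 6.53 and 11.0 on CCL4 arrays and between 4.71 and 6.48 on olive oil arrays. It was above the lowest signal called detected on every CCL4 array and below it on every olive oil array. On olive oil arrays the divisor was thus a signal at which no miRNA was called detected, and all scaled levels below carry this limit. Of the 133 miRNAs detected on at least 3 arrays and tested, limma called 13.5% as higher and 35.3% as lower under CCL4. The median log2 fold change of the 113 miRNAs detected on all arrays was -0.36 on this scale and 0.31 without scaling, so changes are also given relative to that median. The hepatocyte miRNA miR-122 was detected on all 8 arrays, with signals of 18500 or more.

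miR-125a-5p and let-7e of the chromosome 17 cluster were higher in the livers of CCL4 mice. The paralogs miR-99a, miR-100 and miR-125b-5p were not found to differ. Over all weeks miR-125a-5p rose by 0.86 and let-7e by 0.63 on the log2 scale, and both passed the test. miR-99b was detected on CCL4 arrays alone, so the size of its change is not established. None of these 3 paralogs passed the test in either direction. let-7c, the let-7 partner that is no member, was lower on this scale (-0.58, limma adjusted p = 0.0209). With all 567 miRNAs kept in the fit, detected or not, no member passed (limma adjusted p of 0.121 for miR-125a-5p, 0.155 for let-7e and 0.161 for miR-99b). Of the 8 members, 6 were detected on at least 3 arrays and entered the test, miR-99b only through its CCL4 arrays; miR-99b* and miR-125a-3p did not.

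The levels that follow are signals divided by the 75th percentile of the array. miR-125a-5p, the lin-4 counterpart of the cluster, had levels of 7.26 at 4 weeks, 3.79 and 4.48 at 6 weeks and 5.34 and 5.07 at 8 weeks on CCL4 arrays. On olive oil arrays its levels were 3.15, 2.64 and 2.97 at 4, 6 and 8 weeks. Every CCL4 array lay above every olive oil array, and the array of 4 weeks was the highest. Its log2 level averaged 2.34 ± 0.35 (SD, n = 5) under CCL4 and 1.54 ± 0.13 (SD, n = 3) under olive oil. The fitted log2 fold change with week as a factor was 0.86 (SE 0.16, limma adjusted p = 0.00532), which ranked 8 of the 133 tested miRNAs and was 1.21 above the median.

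let-7e, the let-7 member of the cluster, had levels of 18.1 at 4 weeks, 12.4 and 17.1 at 6 weeks and 19.3 and 17.3 at 8 weeks on CCL4 arrays. On olive oil arrays its levels were 11.5, 10.7 and 10.6. The groups did not overlap, but the first CCL4 array of 6 weeks lay close to the olive oil array of 4 weeks and well below the other CCL4 arrays. Its log2 level averaged 4.06 ± 0.25 (SD, n = 5) against 3.45 ± 0.065 (SD, n = 3). The log2 fold change was 0.63 (SE 0.16, limma adjusted p = 0.0183), rank 12 and 0.98 above the median. Without the olive oil array of 6 weeks it was 0.73 and missed the threshold (adjusted p = 0.0558).

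miR-99b, of the miR-99/100 family, was detected on the 5 CCL4 arrays and on 0 of the 3 olive oil arrays. Its levels on CCL4 arrays were 2.02 at 4 weeks, 1.52 and 1.78 at 6 weeks and 1.44 and 1.53 at 8 weeks. On olive oil arrays it was not well above background, with measured levels of 0.997, 1.06 and 1.18 at the same weeks. With each olive oil value set to the lowest signal called detected for any miRNA on that array, miR-99b was 1.26-fold higher in CCL4 mice. The detection limit of miR-99b itself was not determined, so this fold is not a strict lower bound. The measured log2 levels averaged 0.72 ± 0.20 (SD, n = 5) and 0.11 ± 0.12 (SD, n = 3), and the limma adjusted p of the fit to them was 0.0183. A miRNA that enters the test through the group where it is high had to differ, so this p is given as a description. It was 0.110 without either of the 4-week arrays and 0.0854 without the olive oil array of 6 weeks.

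The paralog miR-99a had levels of 11.1 at 4 weeks, 13.5 and 19.0 at 6 weeks and 16.2 and 20.4 at 8 weeks on CCL4 arrays, and 17.5, 21.8 and 18.9 on olive oil arrays. miR-100, the paralog on chromosome 9, had levels of 3.56, then 3.55 and 4.64, then 4.80 and 4.96 on CCL4 arrays, and 4.55, 5.54 and 5.07 on olive oil arrays. miR-125b-5p had levels of 41.4, then 33.7 and 45.4, then 36.3 and 44.8 on CCL4 arrays, and 37.9, 47.3 and 40.4 on olive oil arrays. For each of the 3 the groups overlapped. The number of CCL4 arrays above their own week's control was 1 of 5 for miR-99a, 0 of 5 for miR-100 and 2 of 5 for miR-125b-5p, against 5 of 5 for let-7e, for miR-125a-5p and for 14.3% of all tested miRNAs.

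The log2 fold changes of the paralogs were -0.36 for miR-99a (limma adjusted p = 0.114), -0.28 for miR-100 (adjusted p = 0.149) and -0.07 for miR-125b-5p (adjusted p = 0.740). Relative to the median these were -0.01, 0.08 and 0.29, and the ranks were 73, 60 and 40. The median of the 3 paralogs was -0.28, beside -0.32 over all 133. All CCL4 arrays lay above all olive oil arrays for let-7e and miR-125a-5p, as they did for 9.02% of tested miRNAs, and also without scaling, where the share was 14.3%. All CCL4 arrays lay below all olive oil arrays for 0 of the 6 members and for 43.6% of tested miRNAs. The sign of the paralogs depended on the scale: all 3 were below 0 here and above 0 without scaling or with normexp background correction, while let-7e and miR-125a-5p were above 0 under every scaling run and with normexp. With the arrays scaled to the median of the miRNAs detected on all of them, miR-99a and miR-100 passed as lower.

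**Figure D1:**
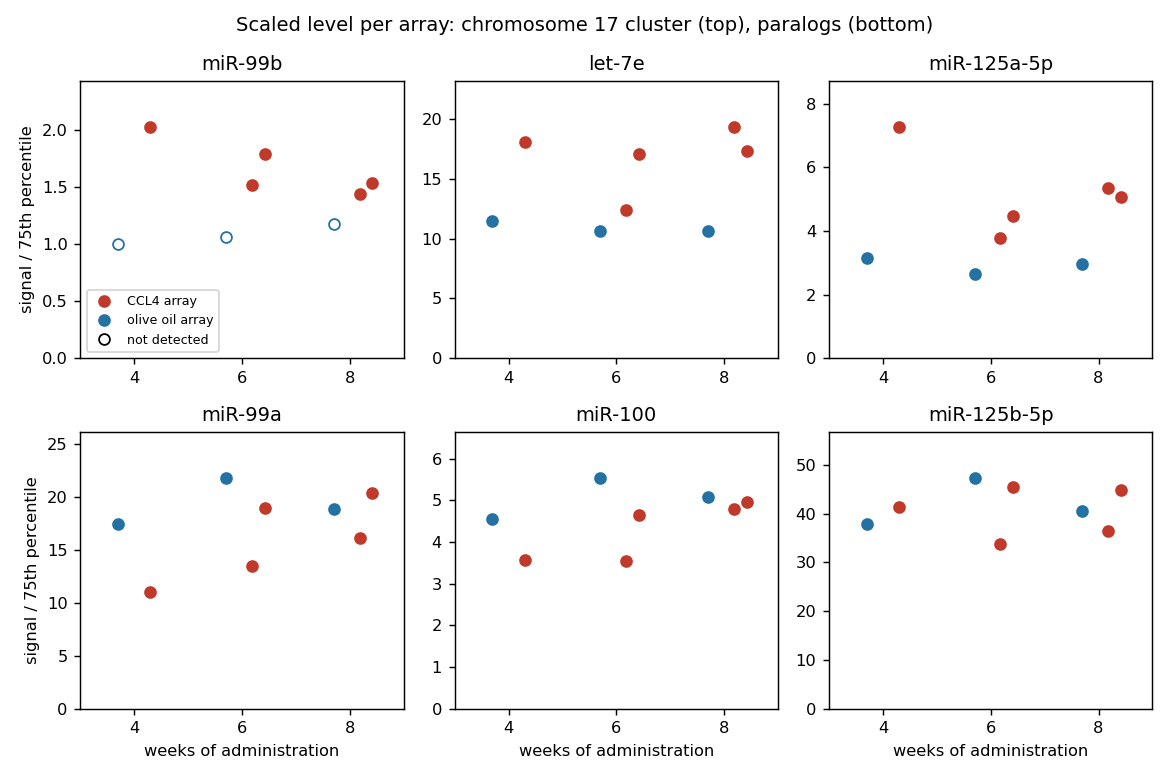
Level of each of the 6 tested miRNAs on each array (signal divided by the 75th percentile of the array, linear axis from 0) against weeks of administration. Red points are CCL4 arrays, blue points olive oil arrays and open points arrays on which the miRNA was not detected; the groups are apart for let-7e and miR-125a-5p and overlap in the lower row, and all olive oil points of miR-99b are open.

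**Figure D2:**
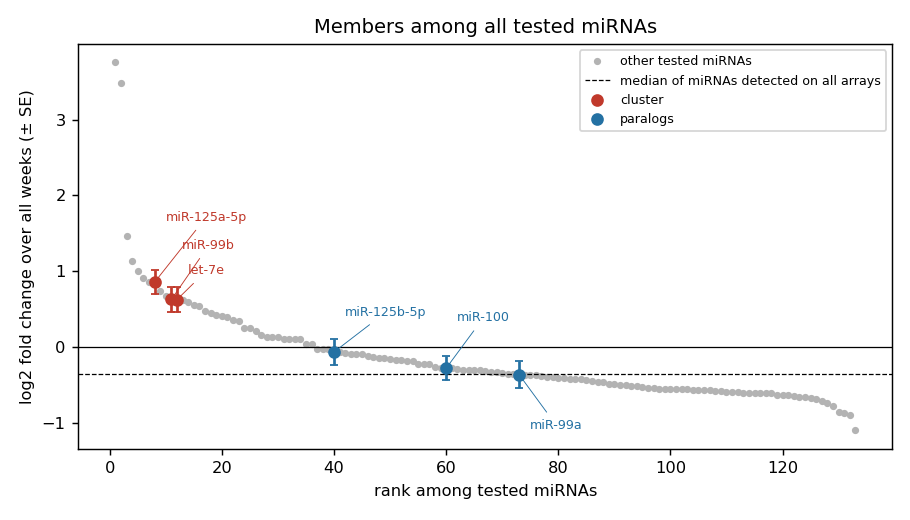
Log2 fold change of CCL4 over olive oil over all weeks for the 133 tested miRNAs, ordered by size, with the standard error for the 6 members. miR-125a-5p and let-7e stand at ranks 8 and 12 and the paralogs at 40, 60 and 73, while the point of miR-99b rests on olive oil values at which it was not detected; the dashed line is the median of the miRNAs detected on all arrays.

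Each tested member was read by a pair of probes of different length, and for the 5 members detected on all arrays both gave the same direction. The log2 difference between the group means was 0.68 and 0.59 for the probes of let-7e and 1.11 and 0.75 for those of miR-125a-5p. For the paralogs it ranged from -0.31 to -0.04. The let-7e probes cover up to 19 bases, and the base at which let-7e differs from let-7a lies in that stretch. On the same scale let-7a had a log2 fold change of -0.63 (limma adjusted p = 0.0179), opposite in sign to let-7e. Without scaling both were above 0, at 0.04 for let-7a and 1.3 for let-7e. The signals of let-7a were 1492 or more and those of let-7e 213 or less. Cross-hybridisation was not tested.

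The passenger strands gave little signal. miR-99b* was detected on 0 of 8 arrays, with signals between -2.25 and -0.358. miR-125a-3p was detected on 1 array, the CCL4 array of 4 weeks, with a signal of 16.5 (the scanner software's error was 2.05), and its signals on the other 7 arrays were between 0.313 and 2.63. That array also had the highest level of miR-125a-5p, the other strand of the same hairpin.

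The effect was then read week by week, in a fit whose spread comes only from the CCL4 pairs of 6 and 8 weeks (2 residual degrees of freedom per miRNA). limma pooled this spread over all tested miRNAs, which share a standard error of 0.328 at 4 weeks and 0.284 at 6 and 8 weeks. The weekly p-values thus rest on the pooled spread and not on that of each miRNA. At 4 weeks miR-125a-5p was 2.31-fold higher (limma adjusted p = 0.00186), and 12.0% of tested miRNAs were higher in that week. let-7e had a fold change of 1.57 at 4 weeks (adjusted p = 0.0877). miR-99b, not detected on the olive oil array, was 1.45-fold higher with that value set to the lowest signal called detected for any miRNA there. These values of 4 weeks rest on 1 array against 1.

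At 6 weeks miR-125a-5p had a fold change of 1.56 and let-7e of 1.37. miR-99b was 1.24-fold higher with its olive oil value set to the lowest signal called detected for any miRNA. At 8 weeks the fold change was 1.75 for miR-125a-5p and 1.72 for let-7e, and miR-99b was 1.23-fold higher with its olive oil value set likewise. No cluster miRNA passed in these weeks, in each of which 6.02% of tested miRNAs were higher. Without the first CCL4 array of 6 weeks, miR-125a-5p and let-7e passed at 6 weeks (limma adjusted p = 0.0114 and 0.0262). Without the second, miR-125a-5p passed (adjusted p = 0.0419), and miR-99a (adjusted p = 0.00993) and miR-100 (adjusted p = 0.0139) passed as lower. The paralogs ranged from a fold change of 0.632 (miR-99a at 4 weeks) to 1.09 (miR-125b-5p at 4 weeks), and none passed in any week in this fit of all arrays. Under other settings with all arrays, miR-99a passed as lower at 4 weeks when tested among miRNAs detected on all arrays (log2 fold change -0.66). With the arrays scaled to the median of those miRNAs, miR-100 passed as lower at 6 weeks (-0.43). As lower, 33.1%, 3.01% and 0.752% of tested miRNAs passed at 4, 6 and 8 weeks. A change of the effect between weeks was not detected for any member (lowest limma adjusted p of the interaction = 0.734, for miR-99b), while 6.02% of tested miRNAs passed that test.

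**Figure D3:**
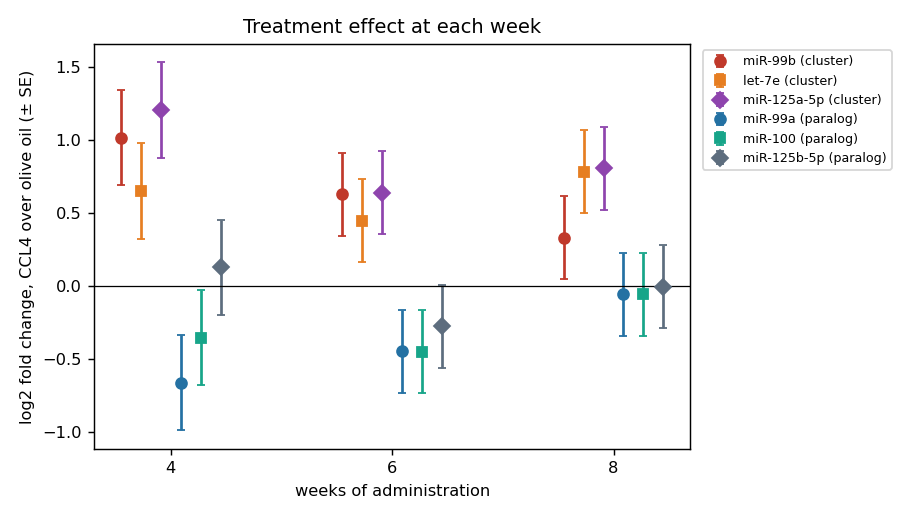
Log2 fold change of CCL4 over olive oil at 4, 6 and 8 weeks for the 6 tested members, with the standard error of the fit, which all miRNAs share (0.328 at 4 weeks and 0.284 at 6 and 8 weeks). let-7e and miR-125a-5p lie above 0 in every week and no paralog lies above 0.13; the points of miR-99b rest on olive oil values at which it was not detected.

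Each chromosome 17 miRNA was set against its paralog on the same array, because a factor that scales a whole array cancels in the ratio. Probe brightness differs between miRNAs, so only the change of a ratio between groups can be read. Of the 4 pairs compared, 2 consist of miRNAs detected on all arrays, miR-125a-5p over miR-125b-5p and let-7e over let-7c. In both the ratio was higher on every CCL4 array than on every olive oil array, as it was for 17.1% of all ordered pairs of tested miRNAs. The exact permutation test (two-sided, 56 splits) gave p = 0.0357 for each, the smallest p that 5 against 3 arrays allow. Its splits took no account of the week, which the limma fit over all weeks keeps as a factor. The other 2 pairs have miR-99b as their numerator and rest on olive oil signals at which it was not detected.

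The ratio of miR-125a-5p to miR-125b-5p was 0.175 at 4 weeks, 0.113 and 0.0986 at 6 weeks and 0.147 and 0.113 at 8 weeks on CCL4 arrays. On olive oil arrays it was 0.0830, 0.0559 and 0.0735. The lowest CCL4 array thus lay above the highest olive oil array, and the log2 ratio differed by 0.86, a 1.81-fold change. By week the fold was 2.11, 1.88 and 1.75.

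For let-7e over let-7c the ratio was 0.178 at 4 weeks, 0.0861 and 0.0941 at 6 weeks and 0.110 and 0.0946 at 8 weeks on CCL4 arrays. The olive oil arrays had ratios of 0.0578, 0.0461 and 0.0462. The groups were well apart and the 4-week CCL4 array was the highest. The log2 ratio differed by 1.12, a 2.18-fold change, and let-7c itself had a log2 fold change of -0.58 (limma adjusted p = 0.0209).

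For miR-99b over miR-99a the measured ratio was 0.182 at 4 weeks, 0.112 and 0.0939 at 6 weeks and 0.0891 and 0.0749 at 8 weeks on CCL4 arrays, against 0.0569, 0.0486 and 0.0624 on olive oil arrays, where miR-99b was not detected. Over miR-100 it was 0.567, then 0.427 and 0.384, then 0.300 and 0.308, against 0.219, 0.192 and 0.232. The measured values gave log2 differences of 0.92 and 0.85 (exact permutation p = 0.0357 each).

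With miR-99b set to the lowest signal called detected for any miRNA on each olive oil array, the differences were 0.64 and 0.57. They then missed the threshold (exact permutation p = 0.0714 each). With normexp, which here added an offset of 50 to each spot, the pair of let-7e kept its call (0.51), while the others came to -0.0546 for miR-99b over miR-99a, 0.0084 for miR-99b over miR-100 and 0.0321 for miR-125a-5p over miR-125b-5p. The arrays lie in 2 rows of 1 slide, and within the first and the second row the log2 difference was 1.44 and 0.46 for miR-99b over miR-99a and 1.26 and 0.50 for miR-99b over miR-100. It was 1.04 and 0.68 for miR-125a-5p over miR-125b-5p, and 1.26 and 1.102 for let-7e over let-7c.

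**Figure D4:**
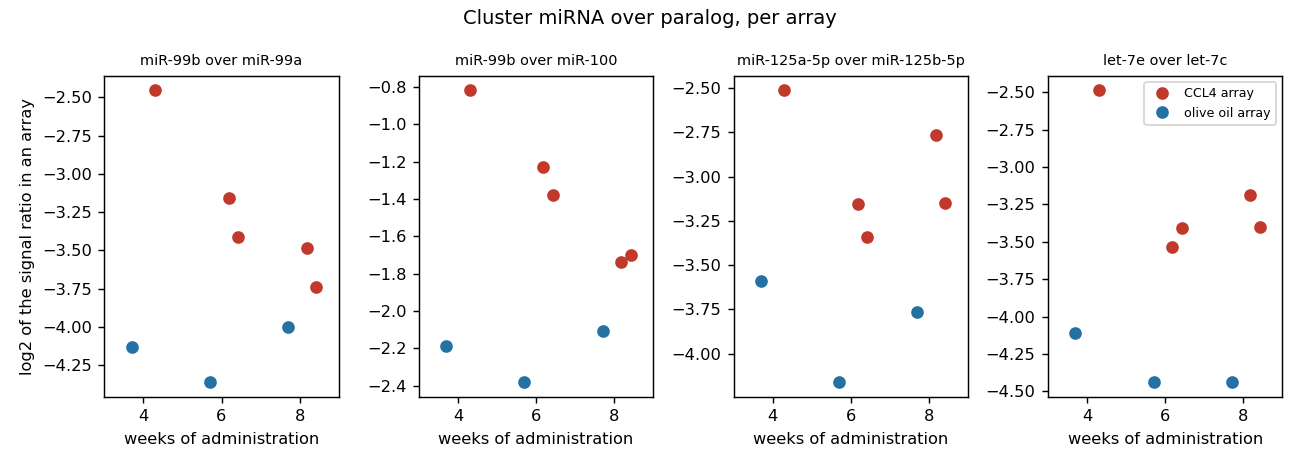
Log2 of the ratio of the signal of a chromosome 17 miRNA to that of its paralog on the same array, against weeks of administration. Red points are CCL4 arrays and blue points olive oil arrays; in the 2 panels on the right every red point lies above every blue point, and the blue points of the 2 on the left rest on miR-99b signals that were not detected.

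Other carriers of the same seeds were taken as a list. Of the 8 let-7 seed relatives of let-7e, 0 passed as higher and 6 as lower, beside 35.3% of all tested miRNAs called lower, with a median log2 fold change of -0.57, or -0.21 relative to the median of the miRNAs detected on all arrays. let-7i was at 0.03 (limma adjusted p = 0.857). The sign of these values depended on the scale: 7 of the 8 lay below 0 here, and all 8 lay above 0 without scaling, when the median was 0.10. The calls depended on it too: 0 passed as lower without scaling, with normexp or with the 75th percentile over miRNAs detected on all arrays. As lower, 1 passed with quantile normalization and 7 with the median over miRNAs detected on all arrays. As higher, 1 passed without scaling and 1 with quantile normalization. miR-10a, whose sequence resembles that of miR-100 with a shifted seed, had a log2 fold change of -0.17 (adjusted p = 0.386). miR-351, with the seed of miR-125, and miR-10b were detected on 0 arrays, as were the 4 passenger strands of the paralogs and of let-7c that the array carries.

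The miRNAs with the most similar profiles over the arrays were found by the root mean square distance between log2 levels, each centred on its own mean. For let-7e these were miR-199a-5p (0.0898), miR-200b (0.115) and miR-497 (0.135), and miR-125a-5p ranked 8 of 112 (0.198). For miR-125a-5p they were miR-31 (0.160), let-7e (0.198) and miR-199b (0.213). The log2 fold changes of these neighbours over all weeks were 0.86, 0.63 and 0.74. Those of the 3 nearest to let-7e were 0.55, 0.45 and 0.48. For miR-99b the nearest was let-7e (0.221), followed by miR-200b (0.225) and miR-31 (0.233), with miR-125a-5p in rank 4 (0.237). These distances of miR-99b include the olive oil arrays, on which it was not detected. The paralogs ranked between 24 and 61 for let-7e and between 29 and 68 for miR-125a-5p.

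The neighbours of the paralogs were others. miR-99a lay nearest to miR-152 (0.0938), miR-185 (0.101) and miR-103 (0.114), with miR-100 in rank 9. miR-100 lay nearest to miR-30b (0.0779), miR-26a (0.0891) and miR-126-3p (0.0895). miR-125b-5p lay nearest to miR-221 (0.123), miR-24 (0.134) and miR-652 (0.138). All these distances describe 8 arrays, and a factor that scales a whole array cancels in them. The shift between CCL4 and olive oil arrays does not cancel, so the distances are not separate from the fold changes given above.

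Some cell type markers also differed between the groups, and in bulk liver fewer cells of a type and less RNA per cell cannot be told apart. Of 5 mesenchymal markers 4 were tested and 3 were higher: miR-199a-5p (0.55, limma adjusted p = 0.0209), miR-199b (0.74) and miR-214 (1.00, both adjusted p = 0.0118), beside 13.5% of all tested miRNAs. The count was 1 with normexp, 2 with quantile normalization and 4 without scaling. Their summed level was 25.1 to 41.8 on CCL4 arrays and 20.3 to 26.2 on olive oil arrays, and miR-145 was not detected. miR-214 was detected on only 6 arrays, with signals of 12.6 to 32.1 on CCL4 arrays and 5.19 to 11.9 on olive oil arrays. Its fold change and p rest in part on values at which it was not detected. They are given as a description, and the 3 markers called higher include it. Of 5 biliary epithelial markers 2 were tested and 1, miR-200b, was higher (0.45, adjusted p = 0.0291), with sums of 4.77 to 7.34 against 4.65 to 4.93 and with miR-200c, miR-141 and miR-429 detected on 0 arrays; its call was lost with normexp and with quantile normalization. The 3 hepatocyte markers were lower on this scale, beside 35.3% of all tested miRNAs, with sums of 2328 to 4120 against 5260 to 5882. Without scaling 2 of them were above 0, and 0 passed without scaling, with quantile normalization or with normexp.

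Of 6 leukocyte markers 4 were tested, with 0 higher and 1 lower (miR-146a, -0.87), beside 35.3% of all tested miRNAs called lower. Without scaling 1 passed as higher and 0 as lower, and with normexp 0 passed in either direction. Their sums were 50.4 to 145 against 72.2 to 107, and miR-150 was detected on 0 arrays. The 2 endothelial markers (136 to 205 against 213 to 225) and the 3 erythroid markers (378 to 961 against 537 to 1225) had 0 calls in either direction, but both endothelial markers passed as lower with the arrays scaled to the median of the miRNAs detected on all of them. The part of these cell types in the levels of the cluster was not tested.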

How the data were processed

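The authors ran Feature Extraction to obtain the deposited intensity of each miRNA. The file headers give 10.5.1.1 as its grid placement version, while the study names an earlier version of the software. Feature Extraction subtracts the background of each spot and sums the probes of each miRNA. The log2 table that the authors also deposited holds the same signals (4536 values compared, largest difference 1.107e-06, with low signals set to 1) and served as an alternative. Each array was scaled to the 75th percentile of its 567 mouse miRNAs, with a floor of 0.01 before log2. miRNAs detected on at least 3 arrays (133) were tested with limma 3.58.1 in R 4.3.3 on all 8 arrays, with week as a factor (4 residual degrees of freedom) or with a mean per group (2), and adjusted by Benjamini-Hochberg over all of them at 0.05. The script was tested on simulated data. Within-array ratios used an exact permutation test without regard to week (scipy 1.17.1). The number of arrays limits the precision.

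Named were the 8 members, their seed relatives and cluster partners, cell type markers and the 3 nearest profiles of each member; let-7i, miR-146a, miR-199a-5p, miR-199b, miR-214 and the other markers named are from these lists. The members and lists were chosen with earlier results of these data known. Sequences came from RefSeq (GRCm38.p6), in which all 8 members were matched. Replicate numbers did not pair the CCL4 arrays of 6 and 8 weeks (correlation of deviations 0.0508). The human samples of the study were not analysed here. Alternatives covered scaling, floor, background correction, detection filter, week term, test and each array left out.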

Additional observations from a re-analysis of the deposited data

Results flagged for a closer look

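let-7e on the CCL4 arrays had 1 array apart from the others. Its log2 level was 3.63 on the first CCL4 array of 6 weeks and on the other 4 lay between 4.10 and 4.27, a gap of 0.724 of the whole range. Chance flags about 1 in 20 groups, and 10 groups were looked at here.

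miR-125b-5p had a log2 fold change of 0.13 at 4 weeks (1 CCL4 array above its olive oil array) and of -0.27 at 6 weeks (both CCL4 arrays below theirs). The limma test of the interaction over the 3 weeks gave an adjusted p of 0.808.

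miR-125a-3p was outside the tested miRNAs and had a signal of 16.5 on the CCL4 array of 4 weeks, where it was detected, against 0.313 to 1.43 on the olive oil arrays.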

How the results depend on the processing

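The 3 cluster miRNAs, miR-99b by its measured values, were above 0 over all weeks under every alternative run. miR-99b entered the test only through its CCL4 arrays, so its calls, which the counts below include, are a description. All 3 passed the threshold under each scaling, the other floor, the deposited table, the intensity trend and without the week term. They also passed by the methods' t-test with Benjamini-Hochberg and with the slide row beside week. The slide row was chosen after seeing the data. Its fit is the same as leaving out the second CCL4 array of 6 weeks, since only that week spans both rows. With normexp 2 passed, miR-99b excepted (0.07). With no filter on detection 0 passed (lowest adjusted p = 0.121), and by the methods' t-test with Bonferroni 0 passed. Leaving out each array gave 1 to 3, with 1 left without the olive oil array of 6 weeks. As lower, 2 paralogs passed with scaling to the median and 1 with the replicate block (miR-99a, -0.53). At 4 weeks 0 members were higher with normexp or no filter, and 1 to 3 with an array left out. At 6 weeks, where 0 passed, 3 did with the 75th percentile over miRNAs detected on all arrays, 2 with median scaling, 2 with quantile normalization and 0 to 3 with an array left out. At 8 weeks, where 0 passed, 2 did with median scaling, 2 without scaling, 2 when tested among miRNAs detected on all arrays, 2 with the intensity trend, 1 with quantile normalization and 0 to 2 with an array left out.

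The reversed value was that of miR-99b over miR-99a with normexp (-0.0546, exact permutation p = 0.679), where miR-99b over miR-100 was 0.0084 and miR-125a-5p over miR-125b-5p 0.0321. Normexp added 50 to spots whose median signal over background was 37.3 to 55.3 for miR-99b and 44.4 to 81.7 for miR-125a-5p. For miR-99b*, which no array detected, it was 31.9 to 42.6. No other offset was run, so the part of the offset or of low signal in these values was not tested. With miR-99b at the lowest signal called detected for any miRNA on each olive oil array, its pairs gave 0.64 and 0.57. Within slide rows they gave 1.44 and 0.46 over miR-99a and 1.26 and 0.50 over miR-100. Both settings were chosen after seeing the data. With each array left out the pairs ranged from 0.72 to 1.04 (miR-99b over miR-99a), 0.72 to 0.95 (over miR-100), 0.69 to 0.98 (miR-125a-5p) and 0.94 to 1.23 (let-7e).

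Over all tested miRNAs, the 18 higher became 34 without scaling, 8 with normexp, 5 with no filter, 11 without the week term, 10 by the methods' t-test with Benjamini-Hochberg, 0 with Bonferroni and 8 to 14 with an array left out. The 47 lower became 10 with the 75th percentile over miRNAs detected on all arrays, 18 with quantile normalization, 0 without scaling, 0 with normexp, 0 with no filter, 16 without the week term, 23 and 1 by the t-test and 5 to 60 with an array left out. The 8 of the interaction became 0 (75th percentile over miRNAs detected on all arrays), 2 (median), 13 (quantile), 0 (normexp), 29 (no filter) and 6 to 31 with an array left out. The cause of these changes was not tested. Olive oil has only replicate 1, and the replicate numbers did not pair the arrays. The replicate block gave 12 higher and 54 lower. let-7e and miR-125a-5p were still higher, as was miR-99b by its measured values. Where leaving out an array left a week without a group, its weekly contrast and the interaction could not be fitted.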
